A study of Canis lupus familiaris with 8 samples.

Results

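The methionine cycle and the remethylation of homocysteine were followed in dog heart through 10 probe sets of 7 genes, out of 6540 genes and 23913 probe sets on the array. The probe sets are those that the platform annotation gives a single symbol among MAT2A, MAT2B, AHCY, AHCYL1, BHMT, BHMT2, MTR and MTRR. No probe set carried BHMT2 as its single symbol, so that gene was not analysed here. All 10 were found in the RefSeq table under their gene identifier with the same symbol. The rule uses gene symbols and no signal values.

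The hearts came from 8 male dogs of 23 to 27 kg, with 1 array per dog. In 4 of them, methionine given for 2 weeks through the water they drank produced hyperhomocysteinemia (HHcy, a high level of homocysteine in the blood), and the 4 dogs labelled control served for comparison. The labels call the material cardiac tissue or cardiac cells and give neither the chamber nor the animals' age or breed. The series asks how chronic HHcy alters cardiac gene expression. The model loads the cycle itself with its substrate, which is why the genes below bear on it.

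Methionine is activated to S-adenosylmethionine (AdoMet), the methyl donor of the cell. In organs other than liver this is done by MAT2A, the catalytic subunit of methionine adenosyltransferase II, and MAT2B is its regulatory subunit. After the methyl group is passed on, the remaining S-adenosylhomocysteine is split by AHCY into adenosine and homocysteine. Homocysteine is turned back into methionine by MTR, the folate- and cobalamin-dependent methionine synthase that MTRR keeps active, or by BHMT, which takes its methyl group from betaine and is known mainly from liver and kidney. MAT2A messenger RNA is known from cell studies to be stabilised when AdoMet is scarce and broken down when it is plentiful, through the methyltransferase METTL16.

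One array, HHcy 6, stood apart. The median of 9 cardiomyocyte markers, as a log2 difference from the control mean, was -4.73 on HHcy 6, while on the other 7 arrays it lay between -0.31 and 0.38. Cardiac troponin T, TNNT2, gave 24.5 units on HHcy 6 but no less than 5900 elsewhere. The median of 4 smooth muscle markers was 3.79 log2 units above the control mean on HHcy 6, against -1.17 to 0.85 on the others. The 3'/5' signal ratio is a sign of RNA quality that is higher in degraded RNA. For actin it reached 599.6 for HHcy 6 and 15.3 for HHcy 5, and lay between 0.378 and 2.67 in the other 6 dogs. For GAPDH it was higher on HHcy 5 (17.2) than on HHcy 6 (10.5), and lay between 1.46 and 5.14 in the other 6. All 11 macrophage markers had a log2 fold change above 0, with a median of 1.20, and their summed signal was 6383 to 9324 in controls and 12359 to 23274 in HHcy. Of 6 fibroblast markers 5 had a value above 0, with a median of 1.57 and summed signals of 12955 to 19347 in controls and 19220 to 52138 in HHcy. All 4 epithelial markers had one above 0, with a median of 1.87, and their summed signal was 125 to 288 in controls and 320.0 to 1659 in HHcy. The 3 tested ones, KRT8, KRT18 and EPCAM, were bright enough to be tested only through their HHcy values. The same held for the macrophage marker CD68. The remaining epithelial marker, CDH1, was too dim to be tested, with overlapping signals of 21.1 to 118 in controls and 30.1 to 96.2 in HHcy. Nothing is read from the epithelial values. None of the tested markers passed limma's test, and their part in the results below was not tested. In whole tissue, fewer cells of a type and less RNA per cell cannot be told apart. Of 14301 probe sets bright enough to be tested, limma called 14 at an adjusted p under 0.05, 14 higher and 0 lower in HHcy (15 higher and 7 lower with arrays scaled to a common median). The median log2 fold change over all of them was 0.15, and it was 0.01 with quantile normalization and fell to -0.19 with median scaling, and small values have to be set against these shifts.

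All 3 MAT2A probe sets had a lower level in HHcy than in control hearts, by 1.24-fold to 2.49-fold, and BHMT had a 2.93-fold higher one. These folds come from group means of log2(signal + 24), not from mean signals. On 2 of the 3 MAT2A probe sets every HHcy array lay below every control array, and on BHMT all HHcy arrays exceeded all controls. AHCY differed between groups by less than the spread between dogs. For MAT2B the log2 difference was 0.32, beside SDs between dogs of 0.35 in controls and 0.27 in HHcy. None of the 7 tested probe sets passed limma's test with Benjamini-Hochberg adjustment over all probe sets, where 0.0979% of all those tested passed. At an unadjusted p under 0.05, 3 of the 7 did, beside 17.8% of all probe sets tested, 1 higher (beside 11.9%) and 2 lower (beside 5.94%). Groups that did not overlap were found for 1 of the 7 in the higher direction and 2 in the lower one, beside 7.49% and 3.89% of all probe sets tested. The 2 lower ones belong to 1 gene, and the higher one is BHMT, which passed the filter on dim probe sets only through its HHcy values, so nothing is read from these counts.

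**Figure D1:**
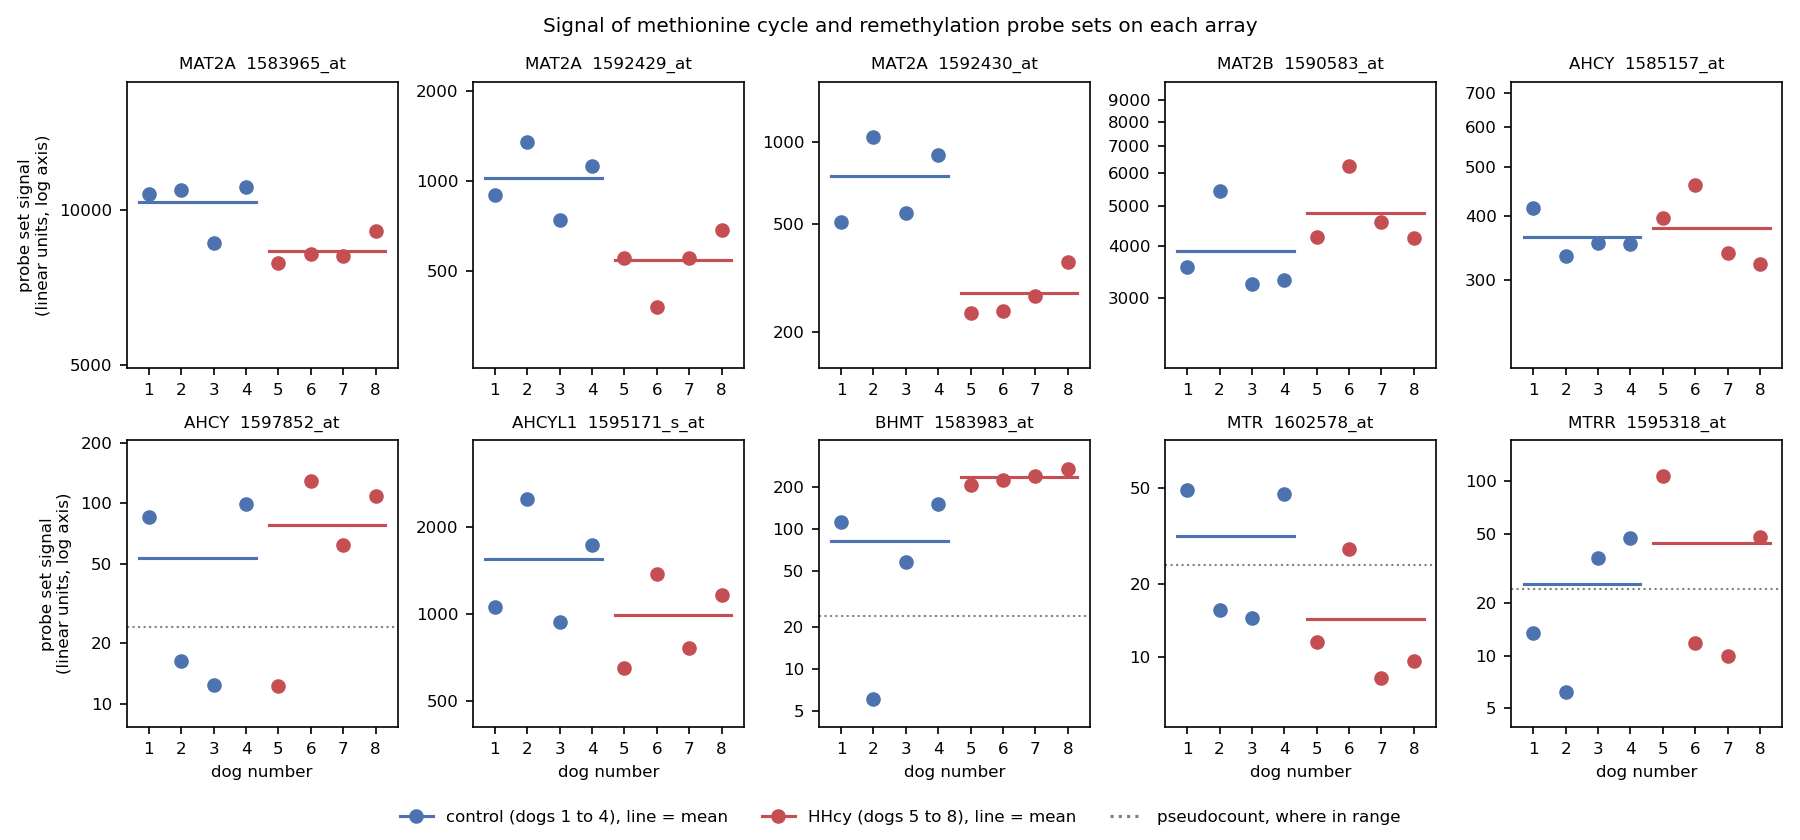
Each panel plots the signal of 1 probe set on a log axis against the dog number, with controls 1 to 4 in blue, HHcy 5 to 8 in red and a line at each group's mean; the dotted line is the pseudocount of 24. All HHcy points lie below all control points for 1592429_at and 1592430_at of MAT2A and above them for BHMT, and the points of the other panels overlap.

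Synthesis of AdoMet comes first. MAT2A (gene ID 475770) was read by the probe sets 1583965_at, 1592429_at and 1592430_at. On 1592430_at the signal was 509, 1040, 548 and 897 on controls 1 to 4 and 236, 239, 272 and 363 on HHcy 5 to 8. The HHcy values lay close together and all under the lowest control, while controls 2 and 4 were well above controls 1 and 3. The group means were 748 ± 261 and 277 ± 59.3 (SD, n = 4 each), and the control level was 2.49-fold that of HHcy on the log2(signal + 24) scale. The log2 fold change was -1.31 ± 0.30 (SE; 95% interval -1.97 to -0.66), with a limma adjusted p of 0.121 over all probe sets and an unadjusted p of 0.000925. It stood at rank 104 by p among the 14301 tested.

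On 1592429_at the MAT2A signal was 896, 1348, 744 and 1120 on controls 1 to 4 and 552, 378, 551 and 688 on HHcy 5 to 8. Here too the groups did not overlap, HHcy 6 being the lowest array and control 3 the lowest control. The log2 fold change was -0.89 ± 0.28 (SE; 95% interval -1.49 to -0.28, limma adjusted p 0.171), from 1027 ± 264 to 542 ± 127 (SD, n = 4 each). The brightest MAT2A probe set, 1583965_at, had signals of 10731, 10946, 8633 and 11101 on the controls and 7896, 8224, 8142 and 9119 on HHcy 5 to 8. Control 3 lay among the HHcy arrays, and the other 3 controls lay above all of them. Its log2 fold change was -0.31 ± 0.20 (SE; 95% interval -0.75 to 0.14, limma adjusted p 0.438).

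The 3 MAT2A probe sets ordered the dogs alike but differed in size. Over the 8 arrays their log2 values correlated pairwise with Pearson's r between 0.89 and 0.95 and Spearman's rho between 0.86 and 0.90, and after the group means were taken out r was 0.66 to 0.84. These are descriptions of 1 gene on shared arrays. The probe sets were then compared in pairs, a comparison chosen after seeing that their fold changes differed, so its p-values are no independent evidence. The log2 difference between 1592430_at and 1583965_at within an array averaged -3.80 ± 0.42 for the controls and -4.81 ± 0.18 for HHcy (SD, n = 4 each), a shift of -1.01. That shift had an exact two-sided permutation p of 0.0286, the smallest that 4 against 4 arrays allow, and 0.0429 after adjustment over the 3 pairs. Between 1592429_at and 1583965_at the shift was -0.58 (exact permutation p 0.0286, adjusted 0.0429), and between 1592430_at and 1592429_at -0.43 (exact permutation p 0.0571, adjusted 0.0571). Without HHcy 6 the shifts were -0.96, -0.43 and -0.52, with an exact permutation p of 0.0571 for each. The first shift also had an exact permutation p of 0.0571 without HHcy 5 (-0.97), without HHcy 7 (-1.02) or without HHcy 8 (-1.09), as did the second without control 2 (-0.47). Where in the transcript each probe set lies was not analysed here.

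MAT2A was also examined without the arrays that stood apart. Without HHcy 6 the log2 fold changes were -0.30, -0.73 and -1.26 for 1583965_at, 1592429_at and 1592430_at. Without HHcy 5 and HHcy 6 they were -0.26, -0.68 and -1.13, from 2 HHcy dogs. With the 3'/5' ratio, averaged on the log2 scale over actin and GAPDH, in the model they were -0.23, -0.47 and -0.96. None passed in these settings (limma adjusted p 0.153 to 0.933), and the lowest limma adjusted p of 1592430_at over its 18 alternatives was 0.0634, with array weights, and the highest 0.875.

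**Figure D2:**
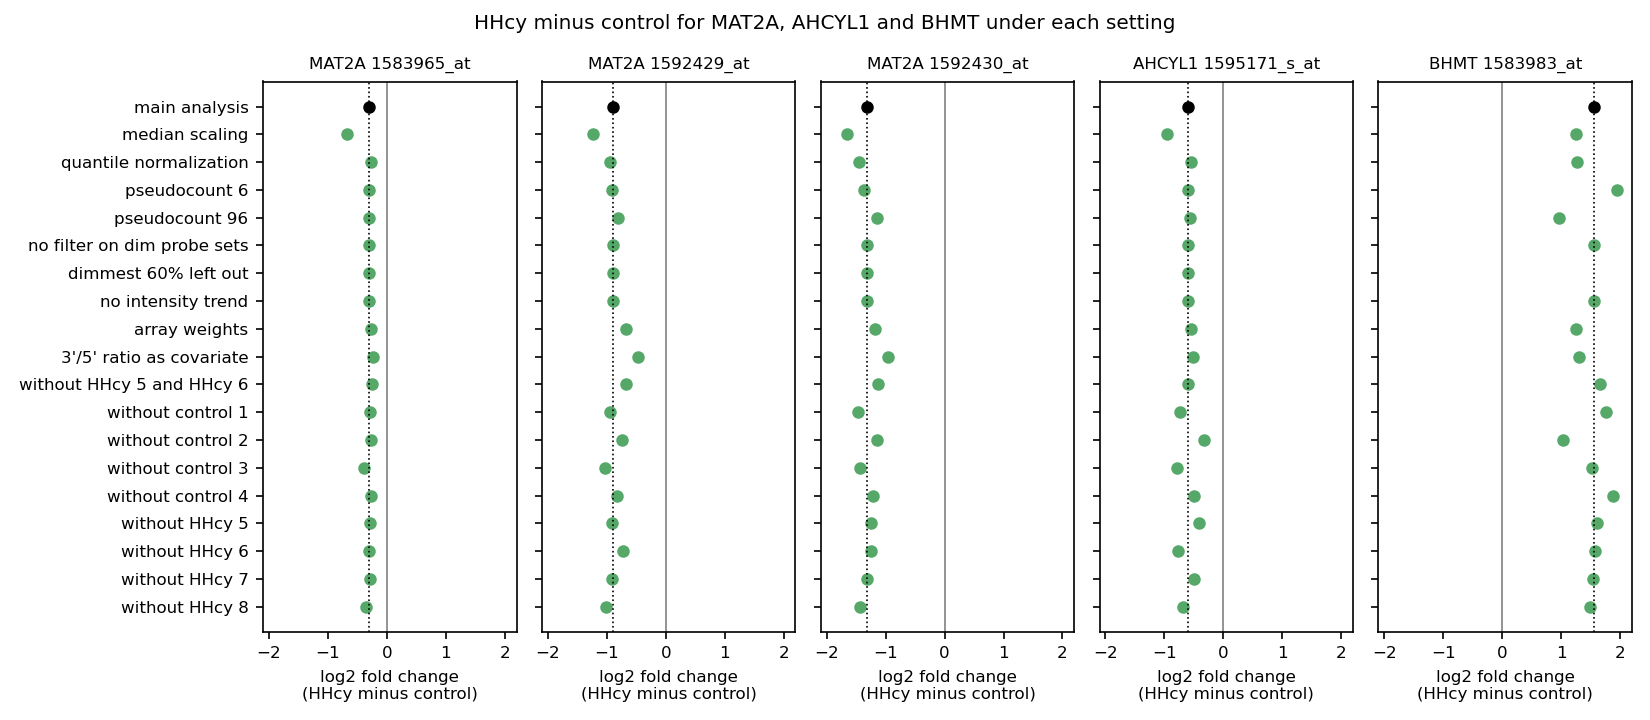
Each panel plots the log2 fold change of 1 probe set, HHcy minus control, on the horizontal axis against the processing setting on the vertical axis; the black point and dotted line are the main analysis and green points the alternatives. Points of MAT2A and AHCYL1 lie left of 0 and those of BHMT right of 0 in each setting drawn; BHMT has no point with the dimmest 60% left out, where it was not tested.

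MAT2B (gene ID 479301), the regulatory subunit, had signals of 3561, 5434, 3256 and 3314 on controls 1 to 4 and 4211, 6246, 4588 and 4193 on HHcy 5 to 8 on its probe set 1590583_at. Control 2 lay above all HHcy arrays but HHcy 6, so the groups overlapped. The log2 fold change was 0.32 ± 0.25 (SE; 95% interval -0.23 to 0.87, limma adjusted p 0.507), and it was 0.19 without HHcy 6 and turned to -0.05 with median scaling.

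AHCY (gene ID 477198), the hydrolase that releases homocysteine, was read by 2 probe sets. On 1585157_at its signal was 415, 335, 355 and 352 on the controls and 396, 460, 339 and 322 on HHcy 5 to 8. The HHcy arrays lay on both sides of the controls, with HHcy 6 the highest and HHcy 8 the lowest of all 8. The log2 fold change was 0.05 ± 0.24 (SE; 95% interval -0.48 to 0.57, limma adjusted p 0.934), which became -0.07 with quantile normalization, -0.30 with median scaling and -0.05 without HHcy 6. AHCY thus differed by less than the spread between dogs, and its direction was not settled. The other AHCY probe set, 1597852_at, was too dim to be tested, with 12.5 to 98.9 in controls and 12.2 to 128 in HHcy. Its log2 difference in the fit without a filter was 0.415, and 0.156 without HHcy 6. It did not order the arrays as the first did (Pearson's r 0.24 and Spearman's rho 0.05 over 8 arrays).

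AHCYL1 (gene ID 611790) resembles AHCY in sequence but is known as IRBIT, a partner of the inositol trisphosphate receptor, and not as a hydrolase of the cycle. Its probe set 1595171_s_at had signals of 1052, 2483, 933 and 1724 on controls 1 to 4 and 648, 1370, 762 and 1161 on HHcy 5 to 8. Controls 2 and 4 lay above all HHcy arrays, and controls 1 and 3 lay among them. The log2 fold change was -0.59 ± 0.36 (SE; 95% interval -1.37 to 0.19, limma adjusted p 0.395), and it was -0.33 without control 2 and -0.77 without HHcy 6. By Affymetrix naming the ending _s_at marks probes shared by several transcripts, so this signal may not be AHCYL1 alone.

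Remethylation follows. BHMT (gene ID 479171), the betaine-dependent enzyme, had signals of 113, 6.19, 58.6 and 153 on controls 1 to 4 and 207, 224, 240 and 270.2 on HHcy 5 to 8 on its probe set 1583983_at. The HHcy dogs lay within a narrow range above all controls, and the controls were spread widely, control 2 being under the pseudocount. The means were 82.7 ± 64.0 and 235 ± 27.1 (SD, n = 4 each), a 2.93-fold higher level in HHcy on the log2(signal + 24) scale. The log2 fold change was 1.55 ± 0.50 (SE; 95% interval 0.46 to 2.64, limma adjusted p 0.176, unadjusted p 0.00928).

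The size of the BHMT difference leans on the dim control values. It was 1.95 with a pseudocount of 6, 0.96 with one of 96 and 1.03 without control 2, on the log2 scale. Without HHcy 6 it was 1.57, and without HHcy 5 and HHcy 6 it was 1.66. With that 3'/5' ratio in the model it was 1.30. In controls the signal taken back from the mean log2 value was 64.2, below the 69.7 needed to be tested, against 234 in HHcy. BHMT was thus tested only because of its HHcy values. BHMT2, its close relative, is the next protein-coding gene to BHMT in the RefSeq table (assembly UU_Cfam_GSD_1.0), and whether the BHMT probe set also reads BHMT2 transcripts was not tested.

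Markers of the organs known for BHMT were set beside it. Of 7 proximal tubule markers of the kidney, 5 were on the array, 4 of them with a value above 0 and 1 below, none passing. The median log2 fold change of the 5 was 0.80, and their summed signal was 2705 to 3522 in controls and 3364 to 3693 in HHcy. AQP1, which blood vessels also express, made up most of that sum, with 2486 to 3225 in controls and 2653 to 3119 in HHcy. In controls and HHcy SLC34A1 had 33.9 to 125 and 99.0 to 206, and LRP2 had 16.4 to 118 and 39.1 to 128. CUBN had 58.4 to 79.2 and 107 to 191, and SLC22A6 had 5.46 to 86.6 and 89.5 to 338. The groups overlapped for AQP1, SLC34A1 and LRP2 but not for CUBN and SLC22A6, and 7.49% of all probe sets tested were higher without overlap. CUBN, SLC22A6 and LRP2 passed the filter on dim probe sets only through their HHcy values, so nothing is read from these differences. Of 12 hepatocyte markers 9 were on the array, 5 above 0 and 4 below, with a median of 0.06 and summed signals of 532 to 1132 and 644 to 1563. Albumin, ALB, had 74.3 to 149 in controls and 31.6 to 193 in HHcy. None of these markers was listed at 0, and their part in the BHMT signal was not tested.

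MTR (gene ID 479190), methionine synthase, was too dim to be tested on its probe set 1602578_at. Its signal was 49.1, 15.7, 14.4 and 47.2 on the controls and 11.5, 28.0, 8.19 and 9.58 on HHcy 5 to 8. Of these, 2 controls and 3 HHcy arrays lay under the pseudocount of 24, so no fold is given. In the fit without a filter the log2 difference was -0.50 ± 0.34 (SE; limma adjusted p 0.508). MTRR (gene ID 478623), its reductase, had 13.5, 6.22, 36.2 and 47.4 on the controls and 108, 11.8, 10.01 and 47.8 on HHcy 5 to 8 on 1595318_at. Both groups of MTRR spread from under the pseudocount upwards, and HHcy 5 alone stood high. The MTRR log2 difference was 0.31 ± 0.48 (SE; limma adjusted p 0.794) and was 0.54 without HHcy 6 and turned to -0.08 without HHcy 5.

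**Figure D3:**
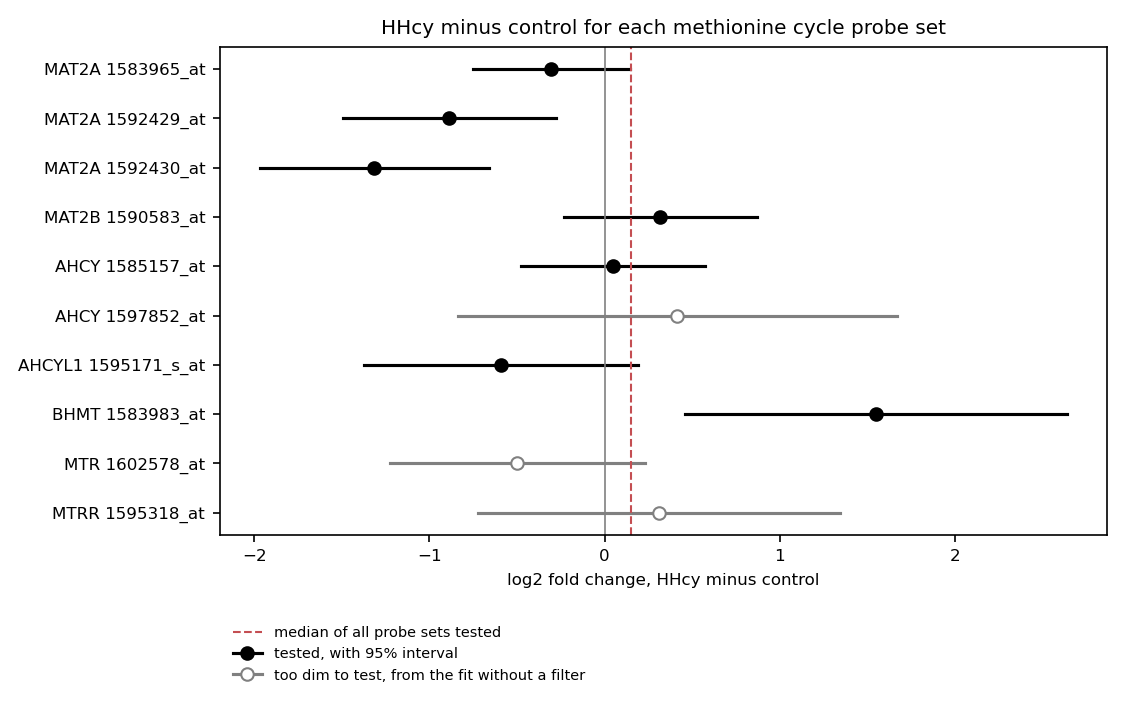
The horizontal axis gives the log2 fold change, HHcy minus control, with its 95% interval from limma for each probe set; filled points were tested, open grey points come from the fit without a filter, and the dashed line is the median of all probe sets tested, 0.15. The intervals of 1592429_at and 1592430_at of MAT2A lie wholly below 0 and that of BHMT wholly above 0, before any adjustment for the number of probe sets.

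For each tested gene the named genes with the most similar pattern over the 8 arrays were picked from 7288 probe sets, so the coefficients below are the highest of many and have no p. The brightest MAT2A probe set was closest to VPS35 (Pearson's r 0.974, Spearman's rho 0.88), a retromer subunit, and SLC25A36 (r 0.953, rho 0.90), a mitochondrial carrier of pyrimidine nucleotides. MAT2B was closest to YY1 (r 0.965, rho 0.95), a zinc finger transcription factor, and TTC14 (r 0.955, rho 0.90). AHCY was closest to SRSF2 (r 0.962, rho 0.98), a splicing factor, and PDXDC1 (r 0.957, rho 0.95). AHCYL1 was closest to RAD23B (r 0.972, rho 0.93), a DNA repair and proteasome shuttle protein, and IPO7 (r 0.971, rho 0.98), a nuclear import receptor. BHMT was closest to RPL10A (r 0.982, rho 0.93), a ribosomal protein, and UMPS (r 0.966, rho 0.95), an enzyme of pyrimidine synthesis. No gene of the pathway lists was among these 10, and none of the 10 passed limma's test (adjusted p 0.231 to 0.952).

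The rest of the pathway was described through 6 lists with 79 genes, of which 43 were on the array and 38 were tested by their brightest probe set. Limma called 0 of the 38 (6 at an unadjusted p under 0.05). Of these 5 were higher (13.2%) and 1 lower (2.63%), beside 11.9% and 5.94% of all probe sets tested, and their median log2 fold change was 0.16, beside 0.15 over all probe sets tested. The groups did not overlap for 4 higher genes (10.5%) and 2 lower genes (5.26%), beside 7.49% and 3.89% of all probe sets. AHCYL2 and CUBN, both among the 5 higher and CUBN also among the 4, passed the filter only through their HHcy values, and SLC44A1 only through its control values, so nothing is read from these counts.

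**Figure D4:**
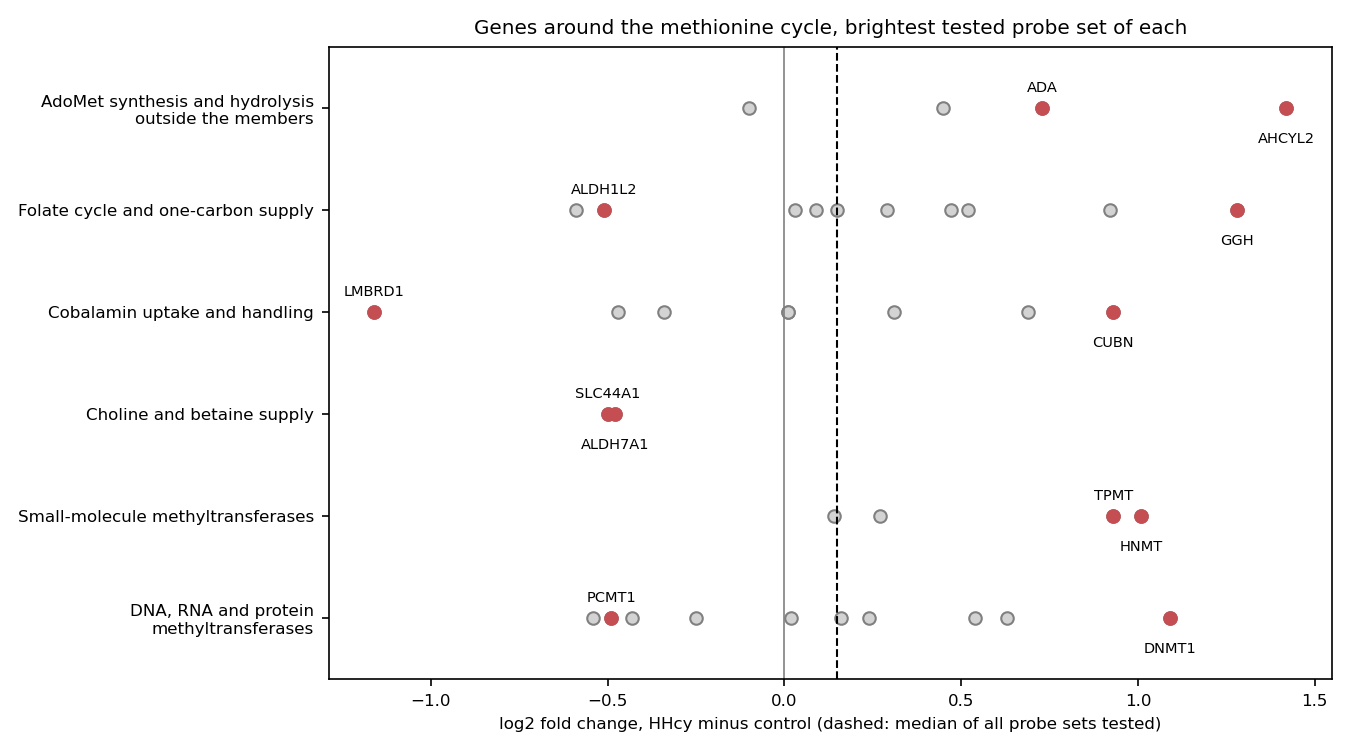
Each point is the log2 fold change, HHcy minus control, of 1 gene's brightest tested probe set, in rows by pathway list; red points are the 2 genes of lowest p in each list and the dashed line is the median of all probe sets tested. Points of most lists lie on both sides of that line, from -1.16 for LMBRD1 to 1.42 for AHCYL2.

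Around AdoMet itself, 4 of 5 further genes were tested, with a median of 0.59. AHCYL2, a second relative of AHCY, had 20.5, 10.2, 94.9 and 100.5 on the controls and 267, 60.7, 161 and 228 on HHcy 5 to 8. HHcy 6 lay among the controls. The signal taken back from the mean log2 value was 44.9 in controls, below the 69.7 needed to be tested, and the log2 fold change was 1.42 ± 0.55 (SE, limma adjusted p 0.229). ADA, which removes the adenosine that AHCY releases, had 313 to 1153 in controls and 1037 to 1691 in HHcy, with control 2 the lowest and HHcy 6 the highest array (0.73 ± 0.39, SE, limma adjusted p 0.347). The ADA value was 0.30 without control 2 and 0.26 with the 3'/5' ratio in the model.

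Of the folate and one-carbon genes 10 of 22 were tested, with a median of 0.22. GGH, the hydrolase that trims folate polyglutamates, had 1663, 1399, 1466 and 1654 on the controls and 4294, 6923, 3059 and 2254 on HHcy 5 to 8. The controls were close together and all HHcy arrays lay above them, HHcy 6 the highest. The GGH log2 fold change was 1.28 ± 0.32 (SE, limma adjusted p 0.140). It was 0.61 with the 3'/5' ratio in the model and 0.76 without HHcy 5 and HHcy 6. ALDH1L2, a mitochondrial enzyme that oxidises formyl-folate, had 394 to 481 in controls and 232 to 366 in HHcy, without overlap, and a log2 fold change of -0.51 ± 0.25 (SE, limma adjusted p 0.301).

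Cobalamin genes, which serve MTR, had a median of 0.01 over 8 tested of 11. CUBN, an uptake receptor for the vitamin bound to intrinsic factor, had 58.4 to 79.2 in controls and 107 to 191 in HHcy, without overlap, and a log2 fold change of 0.93 ± 0.33 (SE, limma adjusted p 0.203). Its control level of 69.5, taken back from the mean log2 value, lay just below that 69.7. CUBN is also one of the kidney markers above. TCN2, which carries cobalamin in the blood, had 127 to 206 in controls and 229 to 315 in HHcy, without overlap (0.69 ± 0.27, SE, limma adjusted p 0.234), and is named after its values were seen. A further TCN2 probe set had 0.05. LMBRD1, which takes part in the release of cobalamin from lysosomes, had -1.16 ± 0.44 (SE, limma adjusted p 0.220), with HHcy 5 and HHcy 6 at 676 and 431 and HHcy 7 and HHcy 8 at 1718 and 1706, within the control range of 1633 to 3502. Other LMBRD1 probe sets had 0.31 and -0.65. With that 3'/5' ratio in the model LMBRD1 had -0.09, and without HHcy 5 and HHcy 6 it had -0.35.

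Choline and betaine genes, which supply BHMT, were scarce, with 2 tested of 10. ALDH7A1, whose reactions include the making of betaine, had -0.48 ± 0.32 (SE, limma adjusted p 0.437) and -1.34 on a further probe set. The choline transporter SLC44A1 had -0.50 ± 0.64 (SE, limma adjusted p 0.689) and 0.24 on a further one.

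Methyltransferases spend AdoMet. Of those acting on small molecules 4 of 11 were tested, with a median of 0.60. HNMT, which methylates histamine, had 201 to 331 in controls and 715, 1327, 608 and 184 on HHcy 5 to 8, so that HHcy 8 lay under every control (1.01 ± 0.47, SE, limma adjusted p 0.288). The HNMT value was 0.625 without HHcy 6, 1.52 without HHcy 8, 0.28 without HHcy 5 and HHcy 6, and -5.97e-05 with that 3'/5' ratio in the model. TPMT, which methylates thiopurines, had 0.93 ± 0.45 (SE, limma adjusted p 0.302) and 0.51 with that ratio in the model, HHcy 6 being the highest array. Of those acting on DNA, RNA and protein 10 of 20 were tested, with a median of 0.09. DNMT1, which maintains DNA methylation, had 108 to 323 in controls and 349 to 689 in HHcy, without overlap and with HHcy 6 the highest array (1.09 ± 0.35, SE, limma adjusted p 0.176). The DNMT1 value was 0.47 with that ratio in the model and 0.72 without HHcy 5 and HHcy 6. PCMT1, which repairs damaged aspartyl residues, had 5727 to 6490.3 in controls and 2976 to 5084 in HHcy, without overlap (-0.49 ± 0.24, SE, limma adjusted p 0.305), while its other probe sets had -0.64, 0.55 and -0.53. HHcy 6 was the lowest PCMT1 array, and the value was -0.305 without it and -0.23 with that ratio in the model. METTL16, named outside the rule for its known link to MAT2A, averaged 548 ± 106 for the controls and 556 ± 108 for HHcy (SD, n = 4 each), a log2 fold change of 0.02 ± 0.26 (SE; 95% interval -0.55 to 0.58, limma adjusted p 0.976), and 0.44 on another probe set. Without HHcy 6 the METTL16 value was 0.16.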

How the data were processed

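Total RNA of cardiac tissue from 8 dogs was hybridised to Affymetrix canine arrays. The authors deposited linear probe set intensities. MAS5 produced them, per the submitters' processing notes, which name no version. The arrays share a trimmed mean (2% off each end) of 500.08 to 500.10, so no further scaling was applied. Groups follow the sample titles. Values were taken as log2(signal + 24), 24 being the 20th percentile, which understates folds of dim genes. The 77 control probe sets and the dimmest 40% were left out, and the remaining 14301 were fitted with limma 3.58.1 (R 4.3.3, eBayes with an intensity trend, Benjamini-Hochberg at 0.05). Dim probe sets of the 7 genes were read from a fit without the filter. The number of arrays limits the precision. The procedure was tested on simulated data.

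The genes, lists and alternatives were chosen with earlier results of these data known. Text names all probe sets of the chosen genes, from each pathway list each gene that passes or else the 2 of lowest p, and the 2 genes most like each member. Alternatives covered scaling, pseudocount, filter, variance model, probe set choice, RNA quality and left-out arrays. Gene symbols come from the platform annotation. No genome build is named for the probe sets, so no coordinates are given for them. The RefSeq table of the assembly named above served for gene identifiers, symbols and the order of BHMT and BHMT2.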

Additional observations from a re-analysis of the deposited data

Results flagged for a closer look

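On the brightest MAT2A probe set, control 3 lay far below the other 3 controls. The gap to the nearest of them was 0.865 of the controls' whole range on the log2 scale, a gap that chance alone gives in about 1 of 20 groups of 4. It was the 1 such case among 20 groups of 4 arrays examined. Control 3 was also the lowest control on 1592429_at of MAT2A. On 1592430_at the lowest was control 1, with 509 beside 548 for control 3. Without control 3 the log2 fold change of the brightest MAT2A probe set was -0.39 (limma adjusted p 0.419), against -0.31 with all arrays.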

How the results depend on the processing

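No paired analysis was possible because the replicate numbers of the controls (1 to 4) and of HHcy (5 to 8) are not shared. Limma called 0 of the probe sets of the 7 genes and 0 of the pathway list genes in each of the 19 alternatives. MAT2A, AHCYL1 and BHMT kept their direction in each alternative that tested them. MTR and the dim AHCY probe set were read from fits without a filter throughout, and their sign did not change there. Alternatives that change only the filter repeat the main value of these dim probe sets. The brighter AHCY probe set, MAT2B, MTRR, METTL16 and HNMT changed sign in at least 1 alternative. With median scaling MAT2B had -0.047, the brighter AHCY probe set -0.30 and METTL16 -0.33. With quantile normalization AHCY had -0.065 and METTL16 -0.061. AHCY had -0.042 with array weights, -0.19 with the 3'/5' ratio in the model and -0.13 without HHcy 5 and HHcy 6, and HNMT had -5.97e-05 with that ratio. Over the settings that leave out 1 array AHCY ran from -0.046 to 0.12, MTRR from -0.082 to 0.57 and METTL16 from -0.068 to 0.163. The cause was not tested. The shifts between MAT2A probe sets were not computed with the 3'/5' ratio in the model or with array weights. With that ratio 1583965_at, 1592429_at and 1592430_at had log2 fold changes of -0.23, -0.47 and -0.96. In the main analysis these were -0.31, -0.89 and -1.31. Over 13 other alternatives the shifts against the brightest probe set ran from -0.67 to -0.42 and from -1.19 to -0.83. An exact permutation p under 0.05 was lost in 3 of them for the first and in 5 for the second, up to 0.133 without HHcy 5 and HHcy 6, where 4 against 2 arrays cannot go below 0.0667. The count over all probe sets, 14, was 22 with median scaling, 7 with quantile normalization, 9 with the dimmest 60% left out, 76 with array weights, 8 with 1 probe set per gene, 5 with the ratio in the model, 5 without HHcy 5 and HHcy 6, and 3 to 31 without 1 array. At an unadjusted p under 0.05 the split was 1700 higher and 849 lower, 674 and 1930 with median scaling, and 1149 and 1155 with quantile normalization. MTR, MTRR and the BHMT controls rest on dim signals.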
